A study of Homo sapiens with 9 samples.

Results

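The RNAs recovered with an antibody to MDH2 were compared, gene by gene, with those recovered by a control IgG from Huh7 cells, a human hepatoma line. MDH2 is the malate dehydrogenase of the mitochondrial matrix. It oxidises malate to oxaloacetate in the tricarboxylic acid (TCA) cycle and takes part in the malate-aspartate shuttle, which carries reducing equivalents from the cytosol into mitochondria. It is encoded in the nucleus and made in the cytosol as a precursor whose targeting signal is removed after import, and it is one of several metabolic enzymes found to cross-link to RNA. In eCLIP, ultraviolet light joins proteins to the RNAs they touch, the protein is immunoprecipitated (IP) with its RNA fragments, and the end of each complementary DNA marks where the cross-link lay.

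The comparison used 6 of the 9 libraries of the series: 3 of an IP with a rabbit antibody to endogenous MDH2 and 3 of an IP with rabbit IgG of the same isotype. Both IPs came from whole lysates of ultraviolet-irradiated Huh7 cells treated with RNase I, and both were amplified with 14 PCR cycles. The remaining 3 libraries, the size-matched input (SMI), hold lysate RNA taken before the IP and amplified with 9 cycles. They served to describe genes and libraries and joined the fit in 1 alternative. The study has a single cell line, and a whole lysate mixes precursor and mature MDH2 and lets RNA and protein of different compartments meet. The labels do not say whether replicates came from separate cultures, so p-values measure the spread between these libraries.

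Cross-link sites were counted along exons and introns in overlapping windows (length 50 nt, step 20 nt), and a site can enter up to 3 windows. The counts were summed over all windows of a gene, over its exon windows and over its intron windows. Of 35308 identifiers with a count in the series, 15491 reached 10 counts in 3 or more of the 6 libraries and were tested on all windows, 12572 on exon windows and 12847 on intron windows. Window counts per library were between 5899998 and 9482501 in the MDH2 IP and between 1631267 and 2942816 in the IgG IP. Values below are CPM, counts scaled to a common library size after TMM scaling, and fold changes are log2 of MDH2 IP over IgG IP. Genes with an adjusted p up to 0.05 were called higher or lower. Genes were tested by edgeR's quasi-likelihood method, two-sided, and p-values were adjusted over all tested genes after Benjamini and Hochberg. A level in an IP is relative to that library, so it does not tell more bound RNA from less of everything else. All 10 markers of hepatocytes and hepatoma cells had counts in exons. Of the markers of other cell types, only LYZ exceeded 45 exon counts in a library, with 830, 475 and 641 in the MDH2 IP and 109, 32 and 35 in the IgG IP.

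The genes higher in the MDH2 IP were mostly mRNAs cross-linked in their exons, led by nuclear tRNA identifiers and an intron of ZNF536. They included 39 of 79 cytosolic ribosomal protein genes, 15 of 38 translation initiation factors and 10 of 42 secreted plasma proteins. Among chaperones they included 6 of 8 subunits of the chaperonin TRiC and 2 of 24 of the endoplasmic reticulum, where 2 others were lower. With the replicate number as a block (described below), 13 of those 24 were higher. In these 5 lists, only 11 genes, all of ribosomal proteins, were called higher in every fit that left out 1 library. The genes lower in the MDH2 IP were mostly genes cross-linked in their introns, together with lncRNAs and a few transcripts of high level such as IGF2, NEAT1 and MT-ND6. Over all windows, 719 genes (4.64% of those tested) were higher and 1203 (7.77%) were lower, 281 (1.81%) and 607 (3.92%) of them by at least 2-fold. With total counts in place of TMM scaling, which moved the median log2 fold change of all genes from 0.02 to 0.17, 1361 were higher and 838 lower. Without a test, every MDH2 IP library was above every IgG IP library for 2792 genes (18%) and below for 2713 (17.5%). The calls depended on single libraries: without MDH2 IP replicate 1 there were 80 higher and 279 lower genes, and without IgG IP replicate 2 there were 294 and 821. Only 70 of the 719 higher and 270 of the 1203 lower genes were called in each of the 6 fits that left out 1 library. A gene that no longer passed the filter on counts in a fit was taken as not called there. Below, the libraries whose removal ended a call are named for the genes described in full.

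**Figure D1:**
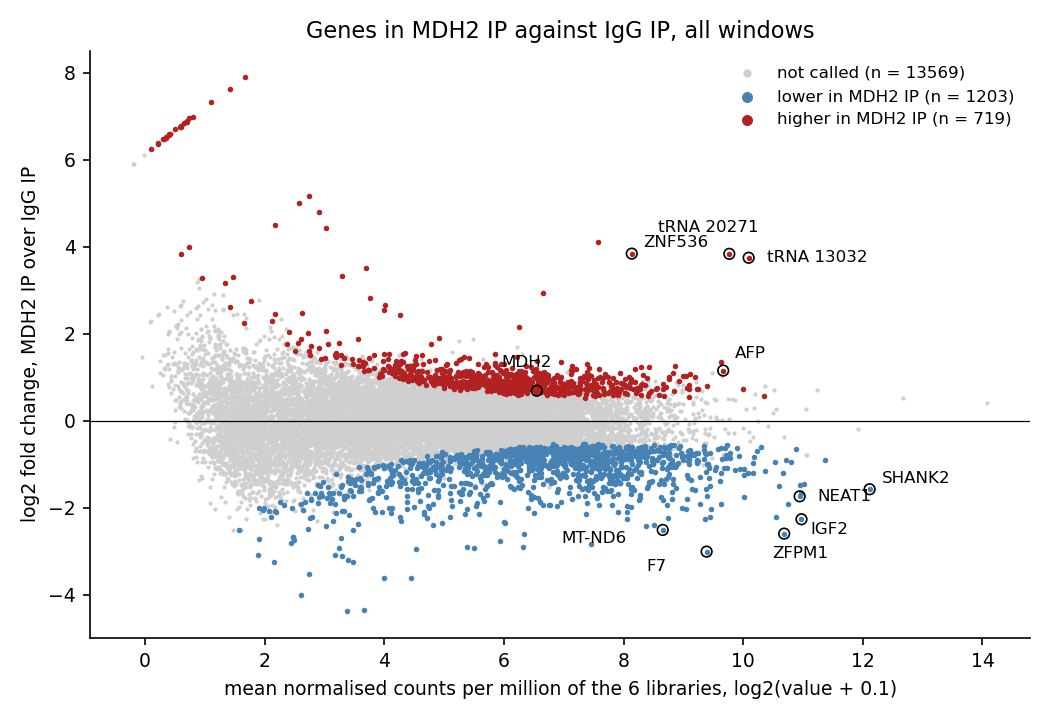
Each point is 1 of the 15491 genes tested on all windows, with the mean normalised CPM of the 6 libraries on the x axis, as log2(value + 0.1), and the log2 fold change of MDH2 IP over IgG IP on the y axis. The 719 higher genes (red) and 1203 lower genes (blue) have an adjusted p up to 0.05, tRNA 13032, tRNA 20271 and ZNF536 stand near 3.8 at high level, and MDH2 itself (0.69) lies among the genes not called.

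Exons held a larger share of the counts in the MDH2 IP than in the IgG IP. Exon windows made up 53.6%, 59.9% and 55.1% of the counts in the MDH2 IP libraries and 38.5%, 34.97% and 31.04% in the IgG IP libraries. The groups did not overlap, and their means were 56.2% ± 3.31 and 34.9% ± 3.75 (SD, n = 3 each; exact two-sided permutation test over libraries, p = 0.1, which is the lowest value possible for 3 against 3, adjusted p = 0.156 over 56 shares tested). The SMI libraries lay between them at 43.9%, 49.8% and 45.7%. Within mRNA genes alone the exon share was 54.9% ± 3.17 in the MDH2 IP and 32.7% ± 3.54 in the IgG IP (SD, n = 3 each).

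**Figure D2:**
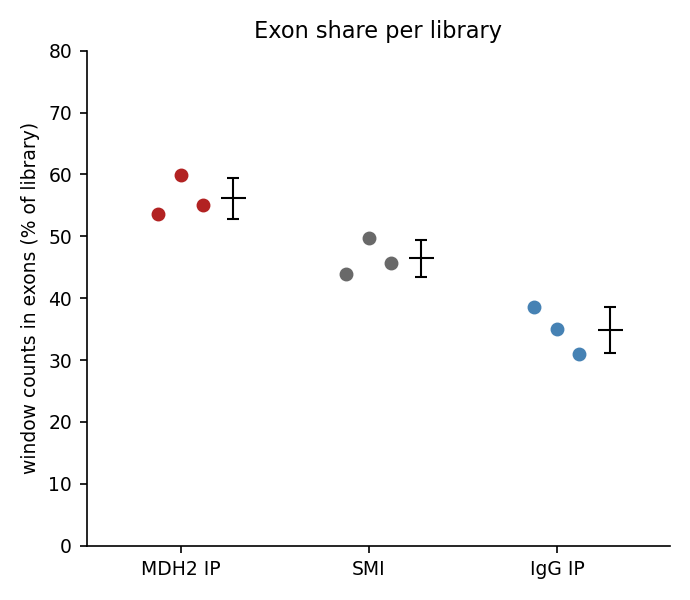
The y axis gives the percentage of window counts in exon windows for each of the 9 libraries, grouped on the x axis by MDH2 IP, SMI and IgG IP, with the mean and SD of each group. All 3 MDH2 IP libraries (53.6% to 59.9%) lie above all 3 IgG IP libraries (31.04% to 38.5%).

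The calls on whole genes followed the exon share of the gene. Genes were binned by the share of their SMI counts in exons, a measure that used neither IP. Of 2291 genes with up to 10% of their SMI counts in exons, 14 were higher in the MDH2 IP (0.611%) and 448 lower (19.6%), with a median log2 fold change of -0.57. Of 1995 genes with over 90%, 179 were higher (8.97%) and 45 lower (2.26%), with a median of 0.43. The median exon share over all 6 libraries was 78.8% for higher genes, 17.1% for lower genes and 49.3% for all genes tested. Higher genes were also shorter, with a median length of 21.6 kb against 89.4 kb for lower genes and 34.3 kb for all.

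**Figure D3:**
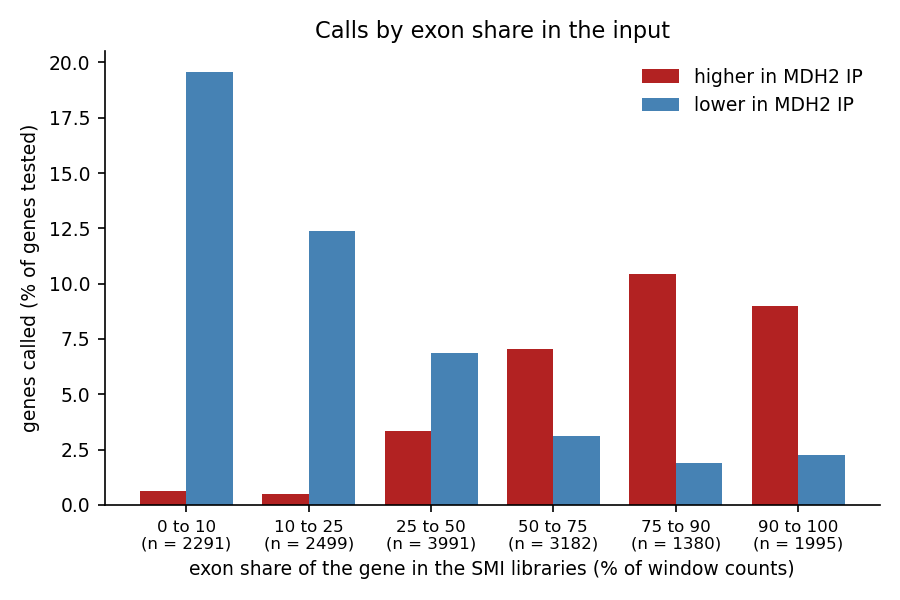
The x axis bins genes by the percentage of their SMI counts in exons, and the y axis gives the percentage of the genes in each bin called higher or lower in the MDH2 IP over all windows. The share called lower falls from 19.6% to 2.26% from the lowest to the highest bin, and the share called higher is 0.611% in the lowest and 8.97% in the highest.

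Summed over exon windows alone, 38 genes (0.302%) were higher and 226 (1.8%) lower. Over intron windows alone, 240 (1.87%) were higher and 516 (4.02%) lower. The unadjusted p was under 0.05 for 1935 genes on exons and 2772 on introns, against 4571 on all windows. In simulated counts the exon fit recovered 12% of 2-fold changes, against 28% on all windows, so a gene not called on exons may still differ there. Each of these sums was scaled to its own kind of window, so a difference shared by all exons is taken out of the exon values. With the scaling factors of all windows, an alternative chosen after the data were seen, 2287 genes were higher and 130 lower on exons, and 82 were higher and 2576 lower on introns. The balance of directions within exons or introns therefore turned with the scaling, and the exon and intron values below are relative to other exons or introns. Of the 719 genes higher over all windows, 26 were also higher on exons and 154 on introns, and none was lower on exons. Their median log2 fold change was 0.93 on all windows, 0.55 on exons (above 0 in 691 of 693 tested) and 0.80 on introns (598 of 613). The median over all genes tested was 0.02, 0.04 and 0.04.

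Nuclear tRNA identifiers were among the larger differences at high level. The table lists nuclear tRNA genes by number without pairing the numbers with names, so their anticodons are not given here. The level of tRNA 13032 was 1307, 2240 and 2546 CPM in the MDH2 IP and 196, 122 and 133 CPM in the IgG IP. It was higher in every MDH2 IP library, with a log2 fold change of 3.75 (standard error 0.30, adjusted p = 0.0003 by edgeR). For tRNA 20271 the levels were 941, 2701 and 1246 CPM against 133, 159 and 48.3 CPM, again with no overlap, and the log2 fold change was 3.84 (standard error 0.49, adjusted p = 0.00222). In the SMI libraries, which were sequenced deeply, both had only 16 to 75 window counts. Both calls held in all 6 fits that left out a library. All counts of both genes lay in exon windows, so their exon values, 3.15 and 3.23, are the same counts under the exon scaling.

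The tRNA signal was confined to few identifiers among those tested. Of 89 tested, 10 were higher and none was lower. Of the 10, 4 had at most 2 counts in every IgG IP library and passed the filter only through the MDH2 IP, so no fold is given for them, and the other 6 had log2 fold changes between 1.91 and 4.10. On exon windows 5 of 89 were higher and none lower, with a median of -0.88. These 10 held 82.0%, 80.6% and 82.0% of the tRNA counts in the MDH2 IP and 15.9%, 31.1% and 24.5% in the IgG IP. The 79 others had a median log2 fold change of -0.38, and 19 of them were above 0. As a share of all counts, tRNA identifiers held 0.348%, 0.717% and 0.571% in the MDH2 IP and 0.248%, 0.104% and 0.090% in the IgG IP, a difference of 0.398 percentage points (exact two-sided permutation test, p = 0.1). On windows that do not overlap, the difference was 0.077 (exact permutation p = 0.3), the groups overlapped, and 5 identifiers were higher. That set leaves out most windows, and a short gene such as a tRNA gene has few. With it, tRNA 13032, at high level over all windows, was not among the genes tested. Whether the smaller difference came from counting each site once or from the windows left out was not tested. The number of higher identifiers was between 4 and 10 when single libraries were left out. The 4 with at most 2 counts in every IgG IP library could not be tested without an MDH2 IP library, so part of the fall was set by the filter. Reads of tRNA copies with the same sequence can be spread over the copies, so counts of single identifiers are uncertain.

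ZNF536, a zinc finger gene at chr19:30224891-30713586 on the plus strand (GRCh38), had 363, 564 and 654 CPM in the MDH2 IP and 46.5, 34.97 and 26.9 CPM in the IgG IP. All MDH2 IP libraries were above all IgG IP libraries, and the log2 fold change was 3.84 (standard error 0.28, adjusted p = 0.000261). However, 98.8% of its counts lay in a single place of intron 4: the highest window and those overlapping it. Without the highest window and those overlapping it, the log2 fold change was -0.073 (adjusted p = 0.934).

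Such single-place genes were 37 of the 719 higher genes (5.15%), 6 of the 1203 lower genes (0.499%) and 729 of all 15491 genes tested (4.71%), counting genes with at least 50% of their counts in 1 window and those overlapping it. Among the 37 were the 10 tRNA identifiers, the mitochondrial MT-TT, the small nucleolar RNA SNORA63B, 14 mRNA genes and 6 lncRNAs. In 11 of the 14 mRNA genes and in 5 of the 6 lncRNAs the place was an intron. CEP152, which encodes a centriole protein, had 80.2% of its counts in intron 3, and its log2 fold change of 2.94 became 1.07 without that window (adjusted p = 0.0683). MTHFD1, an enzyme of folate metabolism, had 68.8% in intron 27, where the highest window held 202, 174 and 279 counts in the MDH2 IP and 6, 3 and 5 in the IgG IP. Its log2 fold change of 2.16 became 0.75 without that window (adjusted p = 0.289). Of the 7 such higher genes that could be tested without the window, none was called. These genes were chosen because that place held at least 50% of their counts in the same libraries. Its removal takes most of their counts, so the loss of calls was largely set by the choice. ADAMTS16 (intron 18, log2 fold change 2.83) and LINC01630 (intron 4, 3.52) had 94.3% and 95.7% of their counts in 1 place and too few elsewhere to be tested. Both were low in the IgG IP, with 3.6, 4.8 and 1.3 CPM and with 3.9, 1.2 and 0 CPM, so the size of these folds is uncertain.

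Protein-coding genes made up most calls in both directions. Of 12492 tested, 672 (5.38%) were higher and 921 (7.37%) lower. The groups of genes below are set beside the 4.64% higher and 7.77% lower of all genes tested. Some are also set beside exon-rich mRNA genes, those with over 75% of their SMI counts in exons. Of these, 299 of 2414 (12.4%) were higher, with a median log2 fold change of 0.49. In groups where this is not repeated below, exon-rich members were higher in 4 of 5 for TRiC, 5 of 11 for cytosolic heat shock proteins and 8 of 23 for plasma proteins. The values were 4 of 7 for apolipoproteins, 3 of 4 for aminoacyl-tRNA synthetases and 0 of 10 for glycolytic enzymes. Level was not matched in these. On exon windows, SRSF11 was the single gene called higher in the lists of protein-coding genes described here.

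Ribosomal protein mRNAs formed the group with the most higher members. Of 79 cytosolic ribosomal protein genes tested, 39 were higher and none lower. In 61, all MDH2 IP libraries were above all IgG IP libraries, beside 2792 of all 15491 genes (18%). This count was not set beside that of exon-rich or abundant mRNA genes. Their median log2 fold change was 0.66 over all windows, 0.21 on exons and 0.43 on introns. Of the 71 with over 75% of SMI counts in exons, 38 (53.5%) were higher. Such genes are also abundant, and of the 774 exon-rich mRNA genes with a mean of at least 50 CPM, 190 (24.6%) were higher, against 37 of 57 ribosomal protein genes (64.9%). On exon windows none of the 79 was called. The number higher fell to 12 without MDH2 IP replicate 1 and was at most 31 in any fit without 1 library, and 11 were called in all 6: RPL4, RPL5, RPL6, RPL10, RPL17, RPL19, RPL24, RPL30, RPS2, RPS4X and RPS6. The whole group held 0.960%, 1.04% and 1.14% of the counts in the MDH2 IP and 0.642%, 0.543% and 0.539% in the IgG IP.

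RPL4, a protein of the large subunit, had 394, 433 and 394 CPM in the MDH2 IP and 221, 164 and 149.7 CPM in the IgG IP. The groups did not overlap, and the log2 fold change was 1.19 (standard error 0.18, adjusted p = 0.00513). On exons alone it was 0.65 (adjusted p = 0.11), not called. RPL24 (1.32), RPL6 (1.05) and RPS4X of the small subunit (1.00) behaved alike: called over all windows, and above the IgG IP in every library but not called on exons.

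Other groups of the translation machinery had fewer higher members. Of 38 initiation factor genes, 15 were higher and none lower, with a median of 0.59. They included EIF4G1 (0.74) and EIF4G2 (0.82), scaffolds that recruit ribosomes to mRNA, EIF2S3 (0.99), a subunit of the factor that brings the initiator tRNA, and EIF3A (0.96). Of the 15 exon-rich ones, 5 were higher. Without MDH2 IP replicate 1, none of the 15 was called. Of 10 elongation and termination factors, 7 of them exon-rich, 1 was higher (14.3% of the exon-rich, near the 12.4% of all exon-rich mRNA genes): EEF1A1, which delivers aminoacyl-tRNA to the ribosome, had 654, 822 and 650.5 CPM against 448, 332 and 259 CPM, a log2 fold change of 1.03 (adjusted p = 0.0157), not called without MDH2 IP replicate 1 or IgG IP replicate 2. Of 5 poly(A)-binding protein genes, 2 were higher (PABPC1, 0.92, and PABPC4, 0.73), neither of them without MDH2 IP replicate 1. Of 20 cytosolic aminoacyl-tRNA synthetases, which charge tRNAs, 5 were higher, among them LARS1 (1.04) and NARS1 (1.01), and none of these was called in all 6 fits without 1 library.

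Chaperone genes of the cytosol were the next group. Those of the endoplasmic reticulum had 2 higher and 2 lower of 24 in the main fit, with a median of 0.59. With the replicate number as a block, 13 of the 24 were higher and 2 lower. In that fit 15 of the 21 cytosolic heat shock genes were higher and 1 lower, and all 8 TRiC genes were higher. All 8 subunit genes of the chaperonin TRiC, which folds cytosolic proteins such as actin and tubulin, were tested, and 6 were higher, between 0.70 for CCT5 and 0.97 for CCT4. None of them was called without MDH2 IP replicate 1 or without IgG IP replicate 2. Of 21 cytosolic heat shock protein genes, 7 were higher and 1, DNAJB6, was lower (-0.86). HSP90AB1, a constitutive HSP90, had 805.5, 683 and 768 CPM in the MDH2 IP and 458, 257 and 358 CPM in the IgG IP, without overlap, and a log2 fold change of 1.07 (adjusted p = 0.0133). It was not called without MDH2 IP replicate 1. HSPB1, a small heat shock protein, had 64.9, 60.9 and 87.6 CPM against 35.4, 22.3 and 31.6 CPM. Its log2 fold change was 1.24 (adjusted p = 0.0117), and its call was held in all 6 fits without 1 library.

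Plasma proteins are a main product of hepatocytes. Of 42 secreted plasma protein genes, 10 were higher and 1 lower, with a median of 0.80 over all windows, 0.43 on exons and 0.65 on introns. AFP, the fetal counterpart of albumin, had 1181, 1216 and 967 CPM in the MDH2 IP and 746, 376 and 385 CPM in the IgG IP. Its log2 fold change was 1.16 (standard error 0.26, adjusted p = 0.0217) over all windows and 1.57 on introns (adjusted p = 0.000907), and on exons it was 0.59, not called. The intron call was made in all 6 fits without 1 library, while the call over all windows was lost without MDH2 IP replicate 1 or 2 and without IgG IP replicate 2 or 3. ALB, which encodes albumin, was higher by 1.10, the chaperone-like CLU by 1.26 and the fibrinogen chain FGA by 1.11. On exons neither ALB (0.57) nor CLU (0.77) was called, and without MDH2 IP replicate 2 none of the 10 was called on all windows. The lower member was the coagulation factor F7, described below.

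Apolipoproteins, the protein part of lipoprotein particles, had 4 higher of 9 tested. APOA1, of high-density lipoprotein, at chr11:116835751-116837622 on the minus strand, had 147, 183 and 206 CPM in the MDH2 IP and 80.5, 71.8 and 55.7 CPM in the IgG IP. The groups stood apart, and the log2 fold change was 1.36 (standard error 0.20, adjusted p = 0.00442). It was called in each fit without 1 library. APOE (1.25), APOC2 (0.90) and APOA2 (0.81) were the others, and these lost their calls without MDH2 IP replicate 1, among other libraries. ABCC2, the transporter that exports conjugated compounds into bile, was higher on each sum: by 1.06 over all windows, 1.16 on exons (adjusted p = 0.0127) and 0.88 on introns (adjusted p = 0.00906). Its levels were 449.7, 466 and 384 CPM against 211, 225 and 188 CPM. Over all windows it was called in all 6 fits without 1 library, but not on exons without MDH2 IP replicate 1 or 2, nor on introns without MDH2 IP replicate 1.

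**Figure D4:**
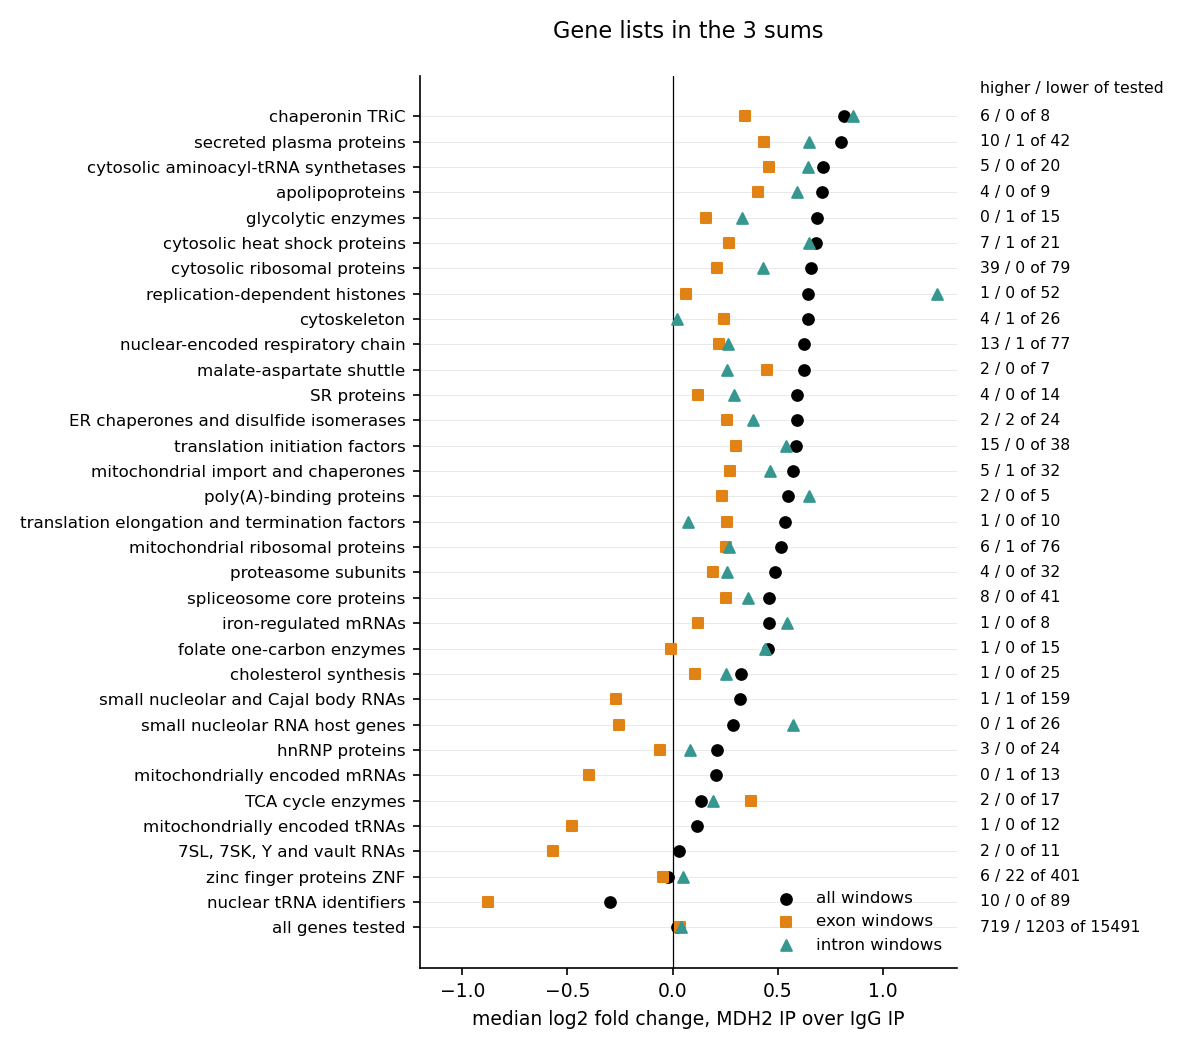
For each gene list with at least 5 genes tested and at least 1 call, symbols give the median log2 fold change of MDH2 IP over IgG IP on all, exon and intron windows (x axis), and the numbers at the right give the genes called higher and lower of those tested on all windows. Most lists of protein-coding genes lie to the right of all genes tested (0.02) on all windows, such as cytosolic ribosomal proteins at 0.66, and nearer to it on exons (0.21).

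The mRNAs of MDH2's own pathways were also examined. MDH2, at chr7:76048051-76067508 on the plus strand, had 114, 122 and 110.5 CPM in the MDH2 IP and 81.6, 50.6 and 81.9 CPM in the IgG IP. Every MDH2 IP library was higher, but the log2 fold change of 0.69 (standard error 0.20) had an adjusted p of 0.0524 and was not called. MDH1, the cytosolic malate dehydrogenase, had 0.62 (adjusted p = 0.0934). Of 17 TCA cycle genes, 2 were higher. IDH3B, a subunit of the NAD-dependent isocitrate dehydrogenase, had 80.7, 77.4 and 85.7 CPM against 42.2, 39.8 and 38.3 CPM, with narrow and separate groups, and a log2 fold change of 1.01 (standard error 0.17, adjusted p = 0.00736). It was called in all 6 fits without 1 library. CS, citrate synthase, was higher by 0.72 (adjusted p = 0.0491) and lost its call in each of those 6 fits. The list's median was 0.14.

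Of 7 genes of the malate-aspartate shuttle, GOT2, the mitochondrial aspartate aminotransferase, and SLC25A11, the carrier that exchanges malate for oxoglutarate, were higher, by 1.07 (adjusted p = 0.0386) and 0.83 (adjusted p = 0.0408). SLC25A11 was called in none of the fits without 1 library and GOT2 in 1. Of 15 glycolytic genes, none was higher and 1, PFKL, was lower (-0.98), although the list's median was 0.69. Nuclear-encoded genes of the respiratory chain and ATP synthase had 13 higher and 1 lower (NDUFA10, -0.96) of 77. ATP5IF1, an inhibitor of ATP synthase, had 27.6, 35.2 and 36.3 CPM against 12.5, 11.5 and 13.4 CPM and was higher by 1.40 (adjusted p = 0.00866). Without MDH2 IP replicate 1, it was the single member of this list still called. Of 39 exon-rich members, 11 (28.2%) were higher. Mitochondrial ribosomal proteins had 6 higher and 1 lower of 76, and mitochondrial import proteins and chaperones 5 higher, among them HSPD1 (0.87) and HSPA9 (0.96), and 1 lower of 32. Their exon-rich members were higher in 4 of 38 and 3 of 17, beside the 12.4% of all such mRNA genes, and without MDH2 IP replicate 1 neither list had a higher gene, nor did the import list without IgG IP replicate 2 or 3.

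Splicing factor genes were called in part. Of 41 genes of the core spliceosome, 8 were higher. SF3B1, of the U2 particle that recognises the branch point, had 239.6, 285 and 195 CPM against 119.5, 92.3 and 75.9 CPM, a log2 fold change of 1.31 (adjusted p = 0.00642), and its partner SF3B2 was higher by 0.98 (adjusted p = 0.00769). Both were called in all 6 fits without 1 library. Of 14 SR protein genes, 4 were higher, and SRSF11 was also called on exons (0.95, adjusted p = 0.0447), a call lost in each fit without 1 library. Of 24 hnRNP genes, 3 were higher, with a median of 0.21. Histone genes had 1 higher of 52 with a median of 0.64, and proteasome genes 4 of 32. Of exon-rich mRNA genes with a mean of at least 50 CPM, 24.6% were higher. Beside this, such hnRNP genes had 3 of 13 (23.1%), histone genes 1 of 6 (16.7%) and proteasome genes 3 of 9 (33.3%). Such SR protein genes had 3 of 8 (37.5%) and core spliceosome genes 3 of 5 (60%). Without MDH2 IP replicate 1 no SR, hnRNP or proteasome gene was called higher, nor was an SR gene without MDH2 IP replicate 2 or a proteasome gene without IgG IP replicate 2. The zinc finger ZNF genes had 6 higher and 22 lower of 401, with a median of -0.02. Both shares were below the 4.64% and 7.77% of all genes tested. MDN1, which encodes an AAA protein of ribosome assembly, was higher by 1.00 (adjusted p = 0.00717) with 590, 533 and 609 CPM against 327, 239 and 298 CPM, and it was called on introns too (0.92). TMSB10, which binds actin monomers, was higher by 1.06. GAS5, a host gene of small nucleolar RNAs that the study names, had 0.58 (adjusted p = 0.0709) and was not called, and SCN1A, with at most 7 counts in any library of the IPs, could not be tested.

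Mature MDH2 resides in mitochondria, whose genome encodes mRNAs, rRNAs and tRNAs. Of 27 of these genes tested, 1 was higher and 1 lower, not more than the 4.64% and 7.77% of all genes. Of 13 mitochondrial mRNAs, none was higher and 1 was lower on all windows. Mitochondrial mRNAs held 0.699%, 0.876% and 0.785% of the counts in the MDH2 IP and 0.800%, 0.698% and 0.624% in the IgG IP, which overlapped. Mitochondrial rRNAs held 2.43%, 3.14% and 3.02% against 2.23%, 1.87% and 1.63%, without overlap (exact two-sided permutation test, p = 0.1), but neither MT-RNR1 (0.52, adjusted p = 0.162) nor MT-RNR2 (0.40, adjusted p = 0.167) was called. The exon scaling turned the list: the median of the mitochondrial mRNAs was 0.20 on all windows and -0.40 on exons.

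MT-ND6, a subunit of complex I, was the lower one. It is the mRNA encoded on the strand opposite to the other mitochondrial mRNAs, at chrM:14149-14673 on the minus strand. Its levels were 111.5, 136 and 114 CPM in the MDH2 IP and 904, 591.5 and 559.9 CPM in the IgG IP. All MDH2 IP libraries were far below the IgG IP libraries, with a log2 fold change of -2.51 (standard error 0.22, adjusted p = 0.000367) over all windows. The call was made in all 6 fits without 1 library. On exons the value was -3.10, from the same counts under the exon scaling, since no mitochondrial mRNA had an intron sum to test. The neighbour of MT-ND6 on the other strand, MT-ND5, had -0.16 on all windows, not called. On exons it had -0.77 (adjusted p = 0.0432), a call lost in each fit without 1 library.

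Among 12 mitochondrial tRNAs tested over all windows, MT-TT, the tRNA for threonine, was higher and none was lower. Its sequence in GRCh38 (chrM:15888-15953, plus strand), shown because it is the mitochondrial RNA called higher over all windows, is without the CCA end that is added after transcription.
MT-TT: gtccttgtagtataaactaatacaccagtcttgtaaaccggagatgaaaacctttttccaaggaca
MT-TT had 62.2, 119.8 and 90.8 CPM in the MDH2 IP and 54.4, 31.4 and 32.9 CPM in the IgG IP. MDH2 IP replicate 1 lay just above IgG IP replicate 1, the log2 fold change was 1.18 (standard error 0.29, adjusted p = 0.0289), and the call was lost without MDH2 IP replicate 2 or 3 and without IgG IP replicate 2 or 3. On exon windows none of the 12 was higher and 1 was lower, with a median of -0.48, and MT-TT had 0.58 (adjusted p = 0.324). The other 11 had log2 fold changes between -0.50 and 0.54, and the share of all mitochondrial tRNAs overlapped between the IPs.

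Of 159 small nucleolar and Cajal body RNAs, which guide modification of other RNAs, 1 was higher and 1 lower over all windows. Of 55 small nuclear RNAs, none was called over all windows. On exon windows none of either was higher, and 2 of the former and 1 of the latter were lower. SNORA63B had 22, 18 and 14 counts in the MDH2 IP and 0 in every IgG IP library, a difference of at least 1.44-fold over a floor of 3 counts per library. It passed the filter on counts only through the MDH2 IP, and 81.5% of its counts lay in windows also listed under another gene. SCARNA17 was lower (-1.07, adjusted p = 0.0477), a call made in none of the fits without 1 library.

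Many of the lower genes at the highest levels had most of their counts in introns. SHANK2, which encodes a postsynaptic scaffold protein, had 2489, 1827 and 2374 CPM in the MDH2 IP and 5971, 5672 and 8258 CPM in the IgG IP, with 4.32% of its counts in exons. Its log2 fold change was -1.57 (adjusted p = 0.0025) on all windows and -1.15 on introns (adjusted p = 0.00211), while on exons it was -0.32, not called. SEPTIN9, a filament-forming GTPase, was lower by the same sums, with -1.45 on all windows and -1.25 on introns. RXRA, the retinoid X receptor, had 494, 503 and 609.6 CPM against 1986, 2086 and 3346 CPM, a log2 fold change of -2.21 (adjusted p = 0.000839), and it was lower on exons (-1.05) and on introns (-1.97) as well. ZFPM1, a cofactor of GATA factors, had 440.5, 375 and 587 CPM against 2166, 2226 and 4080 CPM. It was lower on each sum, by -2.59 on all windows, -1.50 on exons and -2.20 on introns. On all windows these 4 genes were called in all 6 fits without 1 library, while RXRA on exons was called in 1. Other lower genes of high level with most counts in introns were MAD1L1 (-1.65), ATP2B2 (-1.48), VAV2 (-1.90) and CMIP (-1.49). Among genes with at least 50 counts in every IgG IP library, the larger differences included SBNO2 (-2.84), LINC00482 (-2.77) and SRP14-DT (-2.90).

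A smaller set was lower through exons. IGF2, a growth factor of fetal liver, lies at chr11:2129112-2158391 on the minus strand and had 96.2% of its counts in exons. Its levels were 666, 696 and 719.6 CPM in the MDH2 IP and 2931, 4153 and 2906 CPM in the IgG IP. The groups were far apart, with a log2 fold change of -2.26 (standard error 0.19, adjusted p = 0.000367) on all windows and -2.91 on exons (adjusted p = 6.21e-05), and both calls were made in all 6 fits without 1 library. Of its counts, 10.9% lay in windows listed under another gene too. The lncRNA NEAT1, the scaffold of nuclear paraspeckles, had 899.7, 1285 and 543.5 CPM against 3550, 3514 and 2027 CPM, with no overlap. It was lower by -1.74 (adjusted p = 0.00959), and by -2.34 on exons, and without MDH2 IP replicate 1 it was called on exons but not on all windows. The imprinted lncRNA KCNQ1OT1 was lower by -1.04 on all windows (not called without MDH2 IP replicate 1 or 2) and -1.65 on exons. NEAT1 and KCNQ1OT1 were not tested on introns, and the median exon share in their list was 100%. Their exon values therefore rest on nearly the same counts, under the exon scaling. SNHG22, a host gene of small nucleolar RNAs, was lower by -1.77 and -2.43.

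The coagulation factor gene F7 had 141, 253 and 51.0 CPM in the MDH2 IP and 924, 2264 and 388 CPM in the IgG IP. Its libraries varied within both groups without overlap, with a log2 fold change of -3.01 (standard error 0.66, adjusted p = 0.0193), and it was not called without MDH2 IP replicate 1 or without IgG IP replicate 2. It was the secreted protein gene called in the direction opposite to the 10 others, and 28.3% of its counts lay in exons.

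**Figure D5:**
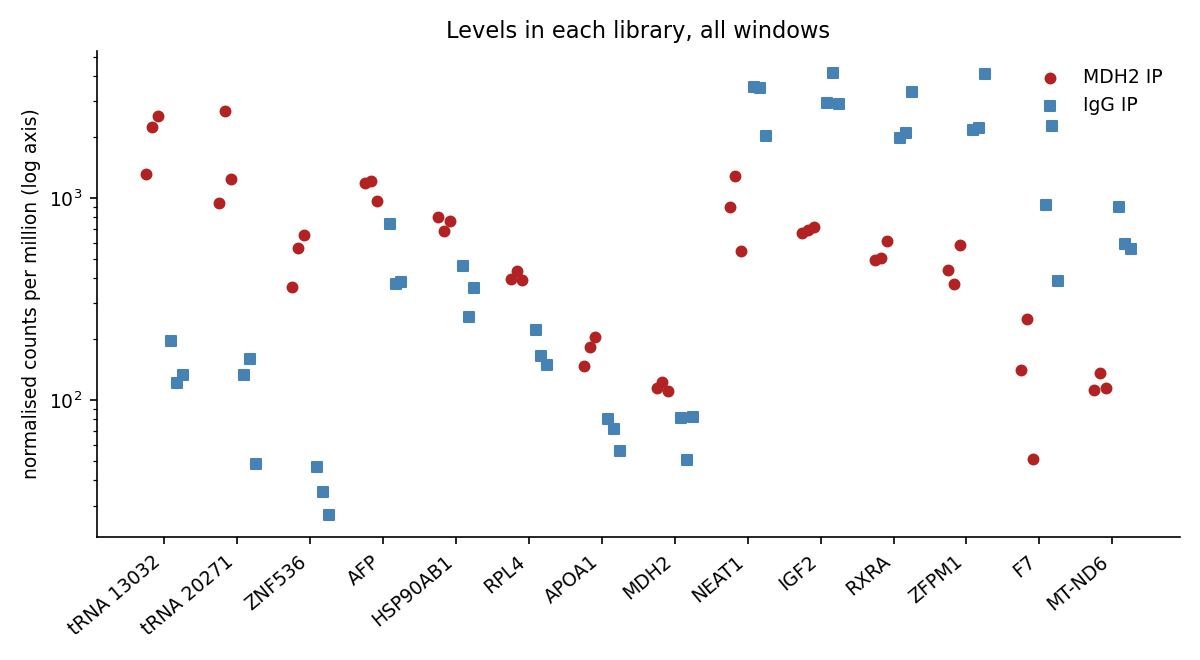
Points give the normalised CPM on a log axis in each of the 3 MDH2 IP and 3 IgG IP libraries for genes named in the text. The MDH2 IP libraries lie above the IgG IP libraries for the genes higher in the MDH2 IP and for MDH2, which was not called, and below them for NEAT1, IGF2, RXRA, ZFPM1, F7 and MT-ND6.

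Over all windows, lncRNAs had more lower than higher members. Of 1889 tested, 16 (0.847%) were higher and 236 (12.5%) lower, beside 4.64% and 7.77% of all genes, with a median of -0.45, and they held 4.72%, 4.73% and 4.56% of the counts in the MDH2 IP and 6.02%, 6.32% and 5.74% in the IgG IP, without overlap (exact two-sided permutation test, p = 0.1, adjusted p = 0.156). On exons 44 of 740 (5.95%) were lower and none higher, beside 1.8% and 0.302% of all genes. On introns 46 of 1434 (3.21%) were lower and 25 (1.74%) higher, near the 4.02% and 1.87% of all genes.

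Lower genes also differed from the rest in base composition and position. Among genes lower on exons, the median GC content of the exons was 56.6%, against 47.9% for all genes tested and 40.6% for those higher. Among genes lower on introns, the median GC content of the introns was 53.7%, against 43.3% for all and 42.7% for those higher. Of the genes lower on exons, 43.4% lay within 5 Mb of a chromosome end, against 13.4% of all, and on introns 43.4% against 12.4%. Over all windows, 328 of 1185 lower genes (27.7%) and 50 of 703 higher genes (7.11%) lay there, against 1941 of 15167 (12.8%). The part of GC content, position or exon share in the calls was not tested.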

How the data were processed

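Per the labels and the study's methods, the authors trimmed the reads with cutadapt, aligned them with STAR to hg38 (GRCh38) with GENCODE v23 and added tRNA genes, kept up to 10 alignments per read, removed PCR duplicates by molecular identifiers, and deposited raw counts of cross-link sites per window (50 nt long, every 20 nt), without normalization. Each library had its own column.

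The counts were summed per gene identifier over all, exon and intron windows with Python 3.11.15. Windows whose counts recur under another gene (386002 windows, 9.80% of counts) were kept in each gene. Symbols and positions came from GENCODE v44, which matched 33751 of 34950 Ensembl identifiers (96.6%). Of 359 numbered tRNA identifiers, 1 that copied a mitochondrial tRNA was left out. One list of small RNAs is not reported here. Positions of windows are not given, since the annotation used here is another release.

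Each sum was fitted on the 6 libraries with edgeR 4.0.16 in R 4.3.3 (TMM scaling, quasi-likelihood test, two-sided, no block), with at least 10 counts required in 3 libraries. Shares of counts were compared by exact permutation tests (scipy 1.17.1), and plots drawn with matplotlib 3.10.9. A fold against a group at 0 was computed over a floor of 3 counts per library. Intervals of counts were not used, since sites enter several windows. Replicate pairs differed by more than sampling noise (chi-square per degree of freedom 2.71 to 9.37). On simulated data for the sum over all windows, 28% of 100 genes changed 2-fold and 76% of 100 changed 4-fold were recovered, with 11 false calls among 14836 genes tested. For the exon sum the shares were 12% and 63%, with 3 false calls among 12076. For the intron sum they were 25% and 70%, with 5 among 12238.

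The text names the genes of highest level and largest fold change in each direction among those called with at least a 2-fold change and libraries apart, up to 4 called members of each gene list by adjusted p, the leading calls on exons and introns, and MDH2, MDH1 and RNAs that the study names. Other genes named were chosen after their values were seen. The gene lists and the comparison were chosen with earlier results of these data known. Alternatives were DESeq2 1.42.0 (Wald test), other scalings, filters and window sets, a fit of all 9 libraries, a one-sided p, the replicate number as a block, and leaving out each library.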

Additional observations from a re-analysis of the deposited data

How the results depend on the processing

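Directions of named genes were the same under each alternative run, with the exception of ZNF536, but the numbers of calls moved. By the DESeq2 Wald test, 1098 genes were higher over all windows, 137 higher and 506 lower on exons, and 382 and 790 on introns. With total counts as the library size, 1361 were higher, 624 of them by at least 2-fold, and 694 on introns. With genes kept from 1 count on, 1681 were higher, 740 by at least 2-fold, with 270 higher and 354 lower on exons and 627 higher on introns. A fit of all 9 libraries gave 1933 lower genes, 137 higher and 369 lower on exons, and 373 and 936 on introns. A one-sided p gave 453 higher genes, 7 on exons and 54 on introns, fewer by construction, since genes that were lower then enter the adjustment with large p-values. Without windows shared by genes, 21 were higher on exons. Scaled by all windows, 2287 were higher and 130 lower on exons, and 82 and 2576 on introns. Size factors of DESeq2 and a filter of 30 counts kept the number of calls within 1.5 times. Without 1 library, all windows gave 80 to 648 higher and 279 to 984 lower genes (73 to 433 and 261 to 646 by at least 2-fold), exons 3 to 38 and 40 to 266, and introns 35 to 156 and 173 to 425, lowest without MDH2 IP replicate 1 for the whole genes. Of 87 named genes called higher over all windows, 62 lost the call without MDH2 IP replicate 1, as did 12 of 35 called lower. The log2 fold change of ZNF536 was -0.073 without its highest window. The difference in the share of mRNA genes, MDH2 IP minus IgG IP, was 0.195 percentage points in windows that do not overlap and 1.15 without mitochondrial and tRNA counts, against a difference below 0 over all windows. Without 1 library it ranged from -0.639 to 0.237 (0.234 without IgG IP replicate 3), and that of mitochondrial tRNAs from -0.00078 (without MDH2 IP replicate 2) to 0.0341. The cause of these changes was not tested.

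With the replicate number as a block (replicate block), 2097 genes were higher and 2232 lower over all windows, 466 higher by at least 2-fold, 349 and 609 on exons, and 979 and 1351 on introns. Gene lists changed unevenly. The number higher went from 39 to 55 for cytosolic ribosomal proteins and from 0 to 10 for glycolytic enzymes. It went from 1 to 8 for elongation and termination factors and from 1 to 20 for histones. The order of lists by number of calls thus depended on the block. The labels do not tie replicate numbers across the IPs to a shared sample, so the main fit did not pair the libraries by number. Across genes, deviations from the group means correlated at -0.03, 0.30 and 0.36 for same-numbered libraries. For differently numbered libraries the values lay between -0.36 and 0.10, below those of same-numbered replicates 2 and 3. Variation that same-numbered libraries share counts as spread in the main fit. Whether they shared a sample was not tested.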

Other observations

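The other gene lists examined held few calls on all windows in the main fit. With the replicate number as a block they held more. The higher genes were then 13 for endoplasmic reticulum chaperones, 16 for the cytoskeleton and 9 for cholesterol synthesis. They were 7 for folate enzymes, 5 for iron-regulated mRNAs and 5 for host genes of small nucleolar RNAs. The lower genes of these lists were 2, 1, 0, 1, 0 and 1. The following counts are of the main fit. Of 24 genes of endoplasmic reticulum chaperones and disulfide isomerases, 2 were higher (HSP90B1 and CANX) and 2 lower (PDIA5 and SIL1), with a median log2 fold change of 0.59. Among fits without 1 library, only the fit without MDH2 IP replicate 3 called any of them higher. Of 26 cytoskeleton genes, 4 were higher and 1 lower (median 0.64). Cholesterol synthesis had 1 higher of 25, folate one-carbon enzymes 1 of 15 (MTHFD1) and iron-regulated mRNAs 1 of 8, with none lower. Of 26 host genes of small nucleolar RNAs, none was higher and 1, SNHG22, was lower. Genes at a higher level were called more often in both directions: of 978 genes with a mean over 200 CPM, 8.79% were higher and 34.4% lower, against 1.39% and 1.34% of 4471 genes with a mean up to 10 CPM.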
